A study of Laccaria bicolor with 37 samples.

Results

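The comparison described here set the RNA of Laccaria bicolor mycelium at and around poplar roots after 3 days of co-culture (EcM) against that of free-living mycelium of the same age (FLM). Its members are the libraries whose labels name ectomycorrhizal root tips at 3 d (3 libraries) or free-living mycelium at 3 d (3 libraries), 6 of the 37 libraries of the time course, and all 23130 gene models of the fungal genome were counted in each. EcM at 3 days post-inoculation (dpi) was strain S238N grown in a sandwich with rooted Populus tremula x alba 717-1B4 cuttings between cellophane sheets, and its samples were hyphae on and beside the roots, together with attached root tissue. FLM was the same strain kept without poplar, on the co-culture medium, and harvested on the same day. The remaining fungal material of the co-culture plates, farther from the roots, is called extraradical mycelium (ExM, 3 libraries at 3 dpi), and FLM taken at the start (T0, 2 libraries) is the mycelium before co-culture. The labels call the 3 libraries of a group biological replicates and do not say whether they came from separate plates. The p-values rest on the spread between libraries within groups, estimated in 1 fit of all 37 libraries, and not on that of these 6 alone.

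Laccaria bicolor is a basidiomycete that wraps the short roots of trees in a sheath of hyphae, the mantle, and then grows between the outer root cells to form the Hartig net, where sugars and soil nutrients are exchanged. Before contact, fungus and root exchange diffusible signals, and the fungus is known to secrete small effector-like proteins, the mycorrhiza-induced small secreted proteins (MiSSPs), of which MiSSP7 enters poplar nuclei and stabilises a repressor of jasmonate signalling. The comparison at 3 dpi asks which fungal transcripts stand apart from those of plant-free mycelium at the first contact of hyphae and roots.

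Total counts lay between 17.35 and 29.47 M (megacounts) in the 6 libraries, and levels are given as counts per megacount after TMM scaling (CPM), a scale on which a gene can be compared between libraries but not with another gene. FLM replicate 2 stood apart from the other FLM libraries: the chi-square per degree of freedom between replicates was 36.9 and 57.8 in its pairs, against 7.13 between FLM replicates 1 and 3 and 8.97 to 20.9 between the EcM replicates. The summed level of the 98 ribosomal protein models tested was 23052 to 24022 CPM in the EcM libraries and 16634 to 24885 CPM in the FLM libraries, and the lowest value was that of FLM replicate 2. Whether this library's difference touched a result is given by the fits without it. RNA of the EcM samples was extracted with a polyethylene glycol supplement that samples without roots did not need, so the extraction and the group cannot be told apart.

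The fungal response at 3 dpi was mostly a rise. Of 15533 gene models tested, 300 (1.93%) were called, that is, had a Benjamini-Hochberg adjusted p under 0.05 in edgeR's quasi-likelihood test and differed by 1 log2 unit or more. Of these, 276 (1.78%) were higher in EcM and 24 (0.155%) were lower. In such bulk samples a change in the share of one kind of hypha and a change in its RNA cannot be told apart. The rises were also the larger changes: 110 gene models were at least 2 log2 units higher, 48 at least 3 and 19 at least 4, whereas only 3 models fell by 2 units or more, and the medians were 1.74 for the 276 and -1.30 for the 24, beside -0.00075 over all models tested. At an adjusted p under 0.05 with no minimum fold, 682 models were higher (4.39%) and 220 lower (1.42%), and at an unadjusted p under 0.05 there were 1836 higher (11.8%) and 1174 lower (7.56%).

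**Figure D1:**
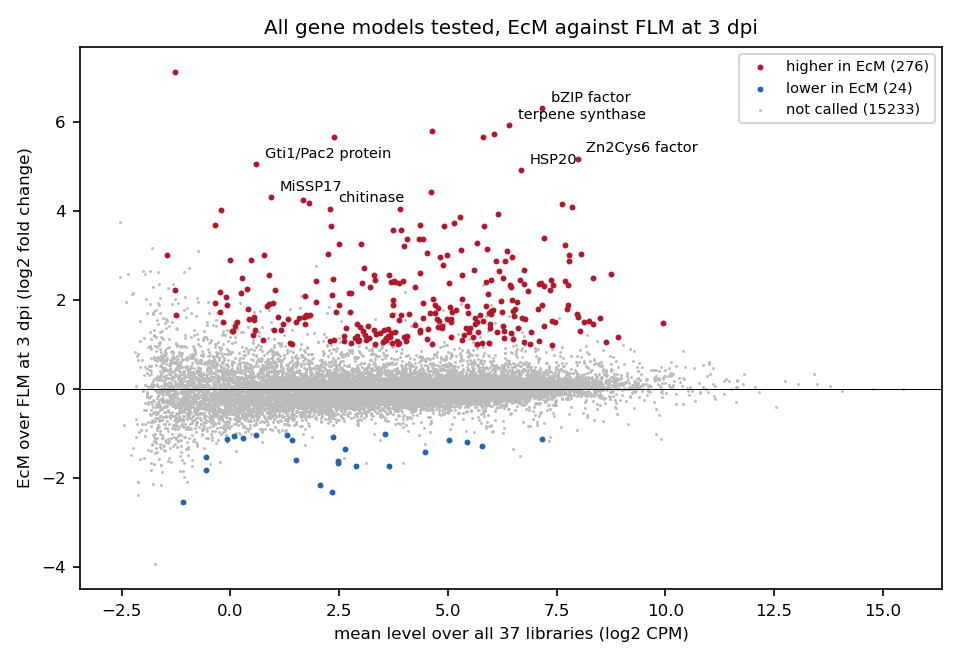
Each point is 1 of the 15533 gene models tested, with its mean level over all 37 libraries (log2 CPM) on the x axis and the EcM over FLM log2 fold change at 3 dpi on the y axis, red where called higher (276) and blue where called lower (24). Called rises are more numerous than called falls and are spread over the range of levels, and the fitted value of a model without counts in FLM, such as 297422, depends on the prior count.

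Among the 276 models called higher, all 3 EcM libraries lay above all 3 FLM libraries in 272, which compares with 15.1% of all models tested. Among the 24 called lower, the EcM libraries lay below the FLM libraries in 20, against 11.1% of all models. The 276 and the 24 were called on these same libraries. Their separation follows largely from the call and tests nothing. The number of calls depended on single libraries: it was 112 without EcM replicate 2, 151 without FLM replicate 3, 166 without FLM replicate 1, 181 without EcM replicate 1 and 280 without FLM replicate 2, whereas it was 370 without EcM replicate 3. In all 6 of these leave-one-out fits, 87 of the models higher and 4 of those lower were called.

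The EcM libraries did not respond to the same extent. EcM replicate 3 had the lowest of the EcM values in 262 of the 276 models called higher, and EcM replicate 2 had the highest in 220. The median log2 distance of these models from the FLM mean was 1.87 in EcM replicate 1, 2.13 in replicate 2 and 1.07 in replicate 3, against 0.05, 0.001 and -0.05 in the FLM libraries. These 276 were chosen by the same contrast, so the distances describe the spread among the EcM libraries and test nothing.

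**Figure D2:**
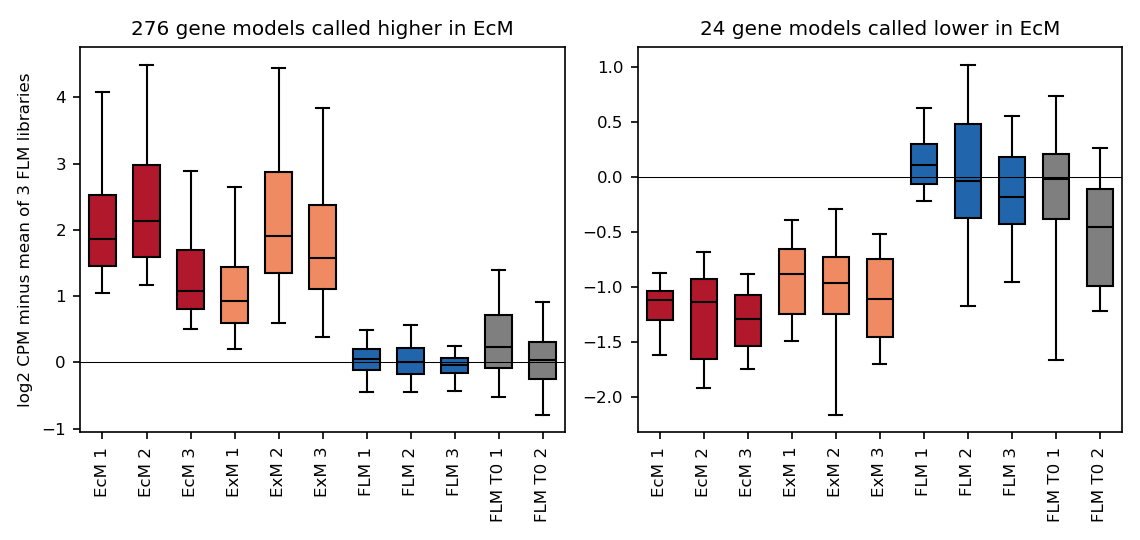
Boxes show, for each library of 3 dpi and of T0, the log2 CPM minus the mean of the 3 FLM libraries of 3 dpi over the 276 gene models called higher (left) and the 24 called lower (right), with the median, quartiles and 5th to 95th percentile whiskers. In the models called higher, EcM replicate 3 (median 1.07) lies nearer to FLM than EcM replicates 1 and 2 (1.87 and 2.13), and the ExM libraries range from 0.93 to 1.91.

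Transcription regulators were among the strongest rises. The largest fold change of a model with substantial counts was that of a basic leucine zipper (bZIP) factor, a class of dimeric DNA-binding proteins (model 395214), with 363, 453 and 155 CPM in the EcM libraries against 4.19, 6.33 and 1.8 CPM in the FLM libraries. Every EcM value was above every FLM value, with EcM replicate 3 the lowest of its group (log2 fold change 6.32 ± 1.13 SE, edgeR adjusted p = 0.00156). A Zn2Cys6 protein, a family of zinc-binding regulators found only in fungi (292029), had 775, 1139.5 and 305 CPM in the EcM libraries against 23.6, 18.4 and 19.2 CPM in the FLM libraries. The groups were again apart, with FLM nearly even among its libraries (log2 fold change 5.18 ± 1.03 SE, edgeR adjusted p = 0.00357).

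Models with a TEA/ATTS domain, the DNA-binding domain of AbaA, a regulator of asexual sporulation in Aspergillus, rose in both cases shown. Model 298274 had 392, 544 and 155 CPM in the EcM libraries against 34.5, 34.8 and 33.4 CPM in the FLM libraries (log2 fold change 3.41 ± 0.76 SE, edgeR adjusted p = 0.00854), and its call was lost without EcM replicate 2 (adjusted p = 0.0547) or FLM replicate 3 (0.0508). A second such model, 656449, had 208, 262 and 117 CPM in the EcM libraries against 32.9, 47.3 and 31.4 CPM in the FLM libraries (log2 fold change 2.40 ± 0.35 SE, edgeR adjusted p = 2.60e-04). No EcM library overlapped an FLM library in either model.

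A further Zn2Cys6 protein, 668161, annotated LbNosA after a regulator of sexual development in Aspergillus, had 165, 245 and 82.4 CPM in the EcM libraries against 40.02, 22.4 and 32.8 CPM in the FLM libraries (log2 fold change 2.37 ± 0.65 SE, edgeR adjusted p = 0.030). That call was lost without each library but EcM replicate 3, with adjusted p values up to 0.164. Of 112 transcription factor models tested, 10 were called higher (8.93%, against 1.78% of all models) and 1 lower, with a median log2 fold change of 0.18. Among the 3951 tested models with annotation text, 142 were called higher, a larger share than 1.78%. The share over all models is therefore a low reference for this list and the others drawn by annotation. The transcription factor list was drawn by annotation text and took in a PalI/Rim9-like pH-response protein (478829, log2 1.65) and a GTP-binding protein (649610, log2 1.60) that are no DNA-binding factors. Its other calls higher were a fungal-specific factor the study had selected on these samples (393526, log2 2.80), a Zn2Cys6 protein (707179, log2 1.41) and a GATA-type zinc finger protein (667316, log2 1.00). The model called lower was another bZIP factor (336090, log2 -1.06). Without EcM replicate 2 or other single libraries the number of calls higher in this list ranged between 4 and 11.

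A Gti1/Pac2 family protein (603166) was scarce in EcM and nearly without counts in FLM. The family holds Wor1, the regulator of the white-opaque switch of Candida albicans, and Gti1, which governs gluconate uptake in fission yeast. It had 2.07, 1.76 and 0.741 CPM in the EcM libraries against 0, 0.0822 and 0.0333 CPM in the FLM libraries, that is, 110 counts in all in EcM and 3 in FLM. The ratio of the scaled counts was 39.1, with a 95% exact interval of 13 to 193 that covers counting error only. It passed the test with edgeR adjusted p = 9.05e-06 and in each leave-one-out fit.

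Among signalling proteins, phosphatases and F-box proteins held the most calls for their number. Protein-tyrosine phosphatases, which remove phosphate groups from tyrosines and switch kinase cascades off, had 3 of 9 models called higher and none lower, against 1.78% and 0.155% of all models, and the same number was called higher in every leave-one-out fit. Model 673052 had 221, 297 and 80.7 CPM in the EcM libraries against 4.75, 2.34 and 4.19 CPM in the FLM libraries (log2 fold change 5.74 ± 1.18 SE, edgeR adjusted p = 0.00451). Model 183494 had 167, 238 and 55.5 CPM in the EcM libraries against 3.07, 3.45 and 2.63 CPM in the FLM libraries (log2 fold change 5.66 ± 1.21 SE, edgeR adjusted p = 0.00611). In both, EcM replicate 3 was the lowest EcM library and still lay far above each FLM library. The third, 463346, had 32.5, 63 and 16.9 CPM in the EcM libraries against 2.24, 3.7 and 3.33 CPM in the FLM libraries (log2 fold change 3.58 ± 0.69 SE, edgeR adjusted p = 0.00276), and it had entered the list through a selection made by the study on these samples. The median of the 9 models was 0.22, so most members moved little.

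F-box proteins, which hand substrates to SCF ubiquitin ligases, had 6 of 47 models called higher (12.8%, against 1.78% of all models) and none lower (against 0.155%), with a median of 0.09. Model 477341 had 42.6, 55.4 and 15.6 CPM in the EcM libraries against 5.09, 2.38 and 4.72 CPM in the FLM libraries (log2 fold change 3.23 ± 0.60 SE, edgeR adjusted p = 0.00218). Model 704262, which also holds leucine-rich repeats, had 442, 634 and 204 CPM in the EcM libraries against 55.9, 45.4 and 57.8 CPM in the FLM libraries (log2 fold change 3.01 ± 0.55 SE, edgeR adjusted p = 0.00197), and model 643802 had 195, 246 and 92.7 CPM in the EcM libraries against 27.8, 21.6 and 23.3 CPM in the FLM libraries (log2 fold change 2.88 ± 0.50 SE, edgeR adjusted p = 0.00123). EcM and FLM libraries did not overlap in these 3 models. Between 4 and 6 F-box models were called higher in the leave-one-out fits.

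The list of protein kinases had 5 of 144 models called higher (3.47%, against 1.78% of all models), none lower and a median of 0.01. That share did not exceed the one among models with annotation text, 142 of 3951. The largest of these 5 was the phosphatase 673052, whose annotation also names a kinase, and the next was 671922, annotated as an ABC transporter by its protein domains. Kinase-like models 699493 (log2 1.47) and 657910 (log2 1.22, selected by the study on these samples) were smaller rises. Model 671922 had 187, 289.9 and 73.9 CPM in the EcM libraries against 12.1, 10.4 and 13.5 CPM in the FLM libraries (log2 fold change 3.93 ± 0.93 SE, edgeR adjusted p = 0.0126), and lost its call without EcM replicate 2, FLM replicate 1 or FLM replicate 3 (adjusted p up to 0.0709). Model 458552, with an aminoglycoside phosphotransferase and a kinase-like domain, had 42.1, 59.5 and 24.8 CPM in the EcM libraries against 13.9, 11.6 and 13.3 CPM in the FLM libraries (log2 fold change 1.71 ± 0.42 SE, edgeR adjusted p = 0.0148), and its call was lost without the same libraries (adjusted p up to 0.125). Without EcM replicate 2, FLM replicate 1 or another single library the list had between 1 and 8 calls higher.

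Other regulators were chosen for mention after their values were seen. A calcipressin, a protein that binds and restrains the calcium-dependent phosphatase calcineurin (610516), had 468, 646 and 222 CPM in the EcM libraries against 49.5, 44 and 47.9 CPM in the FLM libraries (log2 fold change 3.24 ± 0.70 SE, edgeR adjusted p = 0.00629). A cyclin-like protein (658958) had 689.5, 787 and 377 CPM in the EcM libraries against 117, 102 and 107 CPM in the FLM libraries (log2 fold change 2.51 ± 0.36 SE, edgeR adjusted p = 2.25e-04), and a protein with a spartin-like senescence domain (324765) had 233, 343 and 106 CPM in the EcM libraries against 27.6, 25.7 and 25.8 CPM in the FLM libraries (log2 fold change 3.11 ± 0.57 SE, edgeR adjusted p = 0.00181). In all 3 the lowest EcM value was well above the highest FLM value.

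Stress and redox genes held a few called rises. HSP20, a small heat shock protein that keeps unfolding proteins from clumping (384818), had 286, 388 and 97.5 CPM in the EcM libraries against 7.04, 11.2 and 7.12 CPM in the FLM libraries. The lowest EcM library was far above the highest FLM library (log2 fold change 4.93 ± 0.97 SE, edgeR adjusted p = 0.00344). Of 88 models tested in the list of heat shock proteins and chaperones, 4 were called higher (4.55%, against 1.78% of all models), none lower, and the median was 0.14. At an unadjusted p under 0.05, 26 of the 88 were higher and 4 lower, against 11.8% and 7.56% of all models. The other 3 carried the functional category that names chaperones but are not heat shock proteins by their domains: the glycosyltransferase 647187, a RING zinc finger protein (693825, log2 2.41 with edgeR adjusted p = 0.0239, kept only without EcM replicate 3) and an uncharacterised model (675440, log2 1.62 with edgeR adjusted p = 0.00156).

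A 2-nitropropane dioxygenase (467898), one of the flavin enzymes now called nitronate monooxygenases that oxidise toxic nitronates, had 63, 115 and 25.9 CPM in the EcM libraries against 3.19, 3.82 and 2.43 CPM in the FLM libraries (log2 fold change 4.44 ± 0.76 SE, edgeR adjusted p = 0.00111). A second nitronate monooxygenase, 449169, named after its values were seen, had 194, 268 and 91.5 CPM in the EcM libraries against 27.6, 22.9 and 19.8 CPM in the FLM libraries (log2 fold change 2.98 ± 0.59 SE, edgeR adjusted p = 0.00353). Each EcM library was above each FLM library in both.

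The Cu/Zn superoxide dismutase LbCu/ZnSOD (303799), which turns superoxide into hydrogen peroxide, had 47, 86.3 and 21.2 CPM in the EcM libraries against 11.8, 4.52 and 9.11 CPM in the FLM libraries (log2 fold change 2.61 ± 0.65 SE, edgeR adjusted p = 0.0161). Its call was lost without EcM replicate 2 (adjusted p = 0.134), FLM replicate 2 (0.062) or FLM replicate 3 (0.0699). It was the only call among 29 antioxidant and thiol protein models tested (3.45%, against 1.78% of all models called higher), whose median was 0.21. It was also the only call among 25 redox enzymes identified by RefSeq symbol (4%), whose median was 0.24. Of these 25, 21 had a log2 fold change above 0 and 11 had every EcM library above every FLM library, which compares with 15.1% of all models. LbPrx1-Cys, a peroxiredoxin, passed the adjusted p but not the fold threshold (log2 fold change 0.58 ± 0.14 SE, edgeR adjusted p = 0.0112), with 742, 677 and 719 CPM in the EcM libraries against 449.7, 575 and 404 CPM in the FLM libraries. The catalase LbCAT had 167, 148 and 132 CPM in the EcM libraries against 137, 368 and 89.8 CPM in the FLM libraries and was not called (log2 fold change -0.41 ± 0.44 SE, edgeR adjusted p = 0.677). FLM replicate 2 was above all the other libraries in it. Of 3 NADPH oxidase proteins, none was called by edgeR or DESeq2 and none had an unadjusted p under 0.05.

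Terpene synthases, which build terpene skeletons from isoprenoid diphosphates, held 2 strong rises. Model 394925 had 122, 257 and 54.5 CPM in the EcM libraries against 2.46, 2.84 and 1.83 CPM in the FLM libraries. The EcM values were spread widely, with replicate 2 highest and replicate 3 lowest, and all lay above the FLM values (log2 fold change 5.94 ± 1.22 SE, edgeR adjusted p = 0.00471). One of the annotation sources gives this model an alpha/beta hydrolase fold in place of a terpene synthase domain. Model 312850 had 79.6, 132 and 33.8 CPM in the EcM libraries against 5.2, 6.87 and 6.19 CPM in the FLM libraries (log2 fold change 3.75 ± 0.82 SE, edgeR adjusted p = 0.00732), with a call lost without EcM replicate 2 (adjusted p = 0.0538). These were 2 of 7 terpene synthase models tested (28.6%, against 1.78% of all models called higher), and the median of the 7 was 0.09. Both are also members of the early plant response nodes that the study drew on these samples. In the leave-one-out fits 1 or 2 were called.

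Alcohol and short-chain dehydrogenases had 5 of 30 models called higher (16.7%, against 1.78% of all models) and none lower, with a median of 0.33. The zinc-binding alcohol dehydrogenase 691339 had 75, 33 and 14 CPM in the EcM libraries against 3.3, 3.41 and 3.53 CPM in the FLM libraries (log2 fold change 3.58 ± 0.84 SE, edgeR adjusted p = 0.012). EcM replicate 1 was the highest library here, unlike in most models above. A second one, 660224, had 196, 178 and 59.98 CPM in the EcM libraries against 21, 9.79 and 13.9 CPM in the FLM libraries (log2 fold change 3.29 ± 0.98 SE, edgeR adjusted p = 0.0455), and a short-chain dehydrogenase, 467638, had 103, 139 and 38.3 CPM in the EcM libraries against 13, 8.92 and 10.4 CPM in the FLM libraries (log2 fold change 3.12 ± 0.76 SE, edgeR adjusted p = 0.0151).

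The dehydrogenase calls rested on few libraries: the list had no call without FLM replicate 1 or FLM replicate 3, 1 without EcM replicate 1, 2 without EcM replicate 2 and up to 6 in the other leave-one-out fits. Model 660224 kept its call only without EcM replicate 3, with adjusted p values up to 0.156 in the other fits. The call of 691339 was lost without EcM replicate 1 (0.0849), FLM replicate 1 (0.0608) or FLM replicate 3 (0.0631). That of 467638 was lost without EcM replicate 2 (0.0873), FLM replicate 1 (0.0594) or FLM replicate 3 (0.0764). A further alcohol dehydrogenase, 302345, had 32.2, 13.6 and 7.06 CPM in the EcM libraries against 3.13, 2.67 and 2.39 CPM in the FLM libraries (log2 fold change 2.72 ± 0.67 SE, edgeR adjusted p = 0.0152) and lost its call without EcM replicate 1 (0.143), FLM replicate 1 (0.0597) or FLM replicate 3 (0.0831). A 2-deoxy-D-gluconate 3-dehydrogenase, 693238, had 58, 68 and 28.1 CPM in the EcM libraries against 3.41, 6.83 and 7.78 CPM in the FLM libraries (log2 fold change 3.07 ± 0.57 SE, edgeR adjusted p = 0.00232) and was called in each leave-one-out fit.

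Cytochromes P450, the haem monooxygenases of many secondary pathways, went both ways, with 1 of 26 models called higher and 1 lower, against 1.78% and 0.155% of all models, and a median of -0.0029. Model 311267 had 7.69, 8.23 and 5.3 CPM in the EcM libraries against 3.02, 2.8 and 2.79 CPM in the FLM libraries (log2 fold change 1.31 ± 0.20 SE, edgeR adjusted p = 2.25e-04). Model 669382 had 3.63, 3.53 and 3.47 CPM in the EcM libraries against 9.11, 6.17 and 8.95 CPM in the FLM libraries (log2 fold change -1.18 ± 0.26 SE, edgeR adjusted p = 0.00718). EcM and FLM libraries were apart in both, and both calls held in each leave-one-out fit.

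Lipid and peroxisome proteins had 2 of 66 models called higher (3.03%, against 1.78% of all models), none lower and a median of 0.09. A protein with an acyl-CoA oxidase/dehydrogenase domain, the domain of the first step of fatty acid beta-oxidation (654676), had 178, 254 and 82.5 CPM in the EcM libraries against 38.8, 33.2 and 33.1 CPM in the FLM libraries (log2 fold change 2.29 ± 0.56 SE, edgeR adjusted p = 0.0153). A peroxin, a protein of peroxisome assembly (480959), had 29.9, 39 and 15.8 CPM in the EcM libraries against 10.8, 7.89 and 9.95 CPM in the FLM libraries (log2 fold change 1.57 ± 0.47 SE, edgeR adjusted p = 0.0489). Without EcM replicate 2 both calls were lost (adjusted p = 0.11 and 0.249), as they were without FLM replicate 3 (0.0776 and 0.143) or FLM replicate 1 (0.0622 and 0.121). The peroxin also lost it without EcM replicate 1 (0.136) or FLM replicate 2 (0.125). Of 34 fatty acid and sterol enzymes identified by RefSeq symbol none was called by edgeR or DESeq2. At an unadjusted p under 0.05, 6 were higher and 4 lower, against 11.8% and 7.56% of all models. The fatty acid synthase FAS-2 passed the adjusted p under the fold threshold (log2 fold change 0.60 ± 0.13 SE, edgeR adjusted p = 0.00532).

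Transporters of the major facilitator superfamily (MFS), secondary carriers of sugars and other small molecules, had 10 of 78 models called higher (12.8%, against 1.78% of all models) and none lower, with a median of 0.04. The list had 6 calls without EcM replicate 1, and 6 of 63 models (9.52%) were called higher when annotation selected on these samples was left out. Model 304796 had 84.9, 55.1 and 22.4 CPM in the EcM libraries against 5.7, 5.14 and 4.89 CPM in the FLM libraries (log2 fold change 3.38 ± 0.82 SE, edgeR adjusted p = 0.0149), model 482338 had 46.7, 94.7 and 22.8 CPM in the EcM libraries against 7.04, 7.65 and 6.15 CPM in the FLM libraries (log2 fold change 2.98 ± 0.73 SE, edgeR adjusted p = 0.0158), and model 252635 had 55.2, 46.7 and 23.9 CPM in the EcM libraries against 10.6, 12.9 and 11 CPM in the FLM libraries (log2 fold change 1.87 ± 0.36 SE, edgeR adjusted p = 0.0027). The EcM libraries were above the FLM libraries in all 3. The 2 larger calls were lost without EcM replicate 2 (adjusted p = 0.0538 and 0.127), FLM replicate 1 (0.0648 and 0.0701) or FLM replicate 3 (0.0778 and 0.0838), and that of 304796 also without EcM replicate 1 (0.0753). Model 250962, 1 of the 4 with the smallest p among the well-separated calls, had even replicates, with 43.4, 40.7 and 46.9 CPM in the EcM libraries against 21.8, 17 and 22.9 CPM in the FLM libraries (log2 fold change 1.09 ± 0.13 SE, edgeR adjusted p = 1.10e-05). Without FLM replicate 2 its log2 fold change was 0.95, under the fold threshold.

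Of 50 nitrogen transporter models tested, 3 were called higher (6%, against 1.78% of all models) and none lower, and 37 had a log2 fold change above 0, with a median of 0.16. Without EcM replicate 1 the list had 1 call. The ammonium transporter LbAMT2.3c (313221) had 10.05, 9.68 and 3.99 CPM in the EcM libraries against 3.63, 3.08 and 3.16 CPM in the FLM libraries (log2 fold change 1.29 ± 0.25 SE, edgeR adjusted p = 0.00255). EcM replicate 3 was close to FLM here, with the other EcM libraries well above. A proton-coupled oligopeptide symporter (668820) had 13, 10.2 and 7.12 CPM in the EcM libraries against 4.97, 4.28 and 4.62 CPM in the FLM libraries (log2 fold change 1.14 ± 0.20 SE, edgeR adjusted p = 7.17e-04), and its log2 fold change was 0.89 without EcM replicate 1. An amino acid transporter (182249) had 155, 216 and 90.01 CPM in the EcM libraries against 61, 39.7 and 53.2 CPM in the FLM libraries (log2 fold change 1.58 ± 0.45 SE, edgeR adjusted p = 0.0379), a call kept only without EcM replicate 3 and with adjusted p values up to 0.219 otherwise.

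The nitrate transporter LbNrt (254042), named after its values were seen, had 22.9, 19.6 and 23.6 CPM in the EcM libraries against 8.94, 6.58 and 8.88 CPM in the FLM libraries (log2 fold change 1.44 ± 0.24 SE, edgeR adjusted p = 7.17e-04), with no overlap and a call in each leave-one-out fit. Of 6 ammonium transporters identified by RefSeq symbol, LbAMT2.3c was the only one called (16.7%, against 1.78% of all models called higher). LbAMT1.1a (log2 fold change 0.94 ± 0.20 SE, edgeR adjusted p = 0.00622) and LbAMT2.1 (log2 fold change 0.60 ± 0.11 SE, edgeR adjusted p = 0.00181) passed the adjusted p under the fold threshold. LbAMT2.2 (331747), at 0.57, 0.317 and 0.456 CPM in the EcM libraries against 0.279, 0.37 and 0.532 CPM in the FLM libraries, was not called (log2 fold change 0.15 ± 0.54 SE, edgeR adjusted p = 0.92).

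Metal proteins and transporters had 2 of 39 models called higher (5.13%, against 1.78% of all models) and none lower, with a median of 0.10. One was the superoxide dismutase above. The other was a cupredoxin, a copper-binding electron carrier (394024), with 103, 145 and 50.6 CPM in the EcM libraries against 22, 16.5 and 18.2 CPM in the FLM libraries (log2 fold change 2.40 ± 0.54 SE, edgeR adjusted p = 0.00844), and it lost its call without EcM replicate 2 (0.070) or FLM replicate 3 (0.0508). None of 15 metal transporters identified by RefSeq symbol was called by edgeR or DESeq2. At an unadjusted p under 0.05, 4 were higher and 1 lower, against 11.8% and 7.56% of all models.

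Of 177 carbohydrate-active enzyme models tested, 5 were called higher (2.82%, against 1.78% of all models) and 1 lower (against 0.155%), with a median of 0.07. The calls higher in this list ranged between 1, without EcM replicate 2, and 6 in the leave-one-out fits. Of 72 chitin and glucan proteins, 2 were higher (2.78%) and 1 lower, with a median of 0.16 and 1 to 4 calls higher in the leave-one-out fits. All these calls had entered the chitin and glucan list through annotation selected on these samples. Of the 67 models whose annotation came from other sources, 0 were called higher and 0 lower. The chitinase 674406, an enzyme that cleaves the chitin of fungal walls, had 5.52, 4.66 and 1.48 CPM in the EcM libraries against 0.112, 0.288 and 0.266 CPM in the FLM libraries (log2 fold change 4.06 ± 0.67 SE, edgeR adjusted p = 6.82e-04). It was the largest rise of these lists, with every EcM library well above every FLM library. A GH5 family glucanase (387953) had 24.5, 39.1 and 17.4 CPM in the EcM libraries against 7.71, 9.37 and 8.32 CPM in the FLM libraries (log2 fold change 1.67 ± 0.40 SE, edgeR adjusted p = 0.0138), with a call lost without EcM replicate 2 (0.129), FLM replicate 1 (0.070) or FLM replicate 3 (0.0691). A GT1 glycosyltransferase (309199) had 109.8, 129.9 and 50.8 CPM in the EcM libraries against 25.9, 25.8 and 27.4 CPM in the FLM libraries (log2 fold change 1.88 ± 0.51 SE, edgeR adjusted p = 0.0298), a call kept only without EcM replicate 3 and with adjusted p values up to 0.159 otherwise.

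Of 121 protease models, 2 were called higher (1.65%, against 1.78% of all models) and none lower, with a median of 0.0030. A serine protease of the S1 clan (655343) had 59.6, 102 and 30.6 CPM in the EcM libraries against 7.21, 10.3 and 6.42 CPM in the FLM libraries (log2 fold change 3.01 ± 0.53 SE, edgeR adjusted p = 0.00134). A prolyl oligopeptidase-like hydrolase that another source calls an esterase (308796) had 37.2, 50.01 and 20.7 CPM in the EcM libraries against 7.77, 7.98 and 6.29 CPM in the FLM libraries (4.92-fold higher, edgeR adjusted p = 0.00927), with a call lost without EcM replicate 2 (0.0726) or FLM replicate 3 (0.0617). Of the 15 clitocypins and other protease inhibitors none was called by edgeR or DESeq2, and the median was -0.17. At an unadjusted p under 0.05, 1 was lower, against 7.56% of all models. Clitocypin 293826, an inhibitor of cysteine proteases, had 10.4, 7.91 and 2.73 CPM in the EcM libraries against 3.41, 2.18 and 3.09 CPM in the FLM libraries (log2 fold change 1.32 ± 0.72 SE, edgeR adjusted p = 0.335). Its values overlapped between the groups. Clitocypin 318727, with 3.49, 3.75 and 3.25 CPM in the EcM libraries against 3.52, 3.29 and 2.49 CPM in the FLM libraries, was not called either (log2 fold change 0.19 ± 0.54 SE, edgeR adjusted p = 0.894).

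The lists shown in the plot of shares called and medians overlap in members. They were chosen with results of these data known, and part of the annotation came from tables for which the study had selected models on these same samples, so the counts are a description. Models with annotation text were called higher more often than all models tested (142 of 3951), so the 1.78% is a low reference for these lists. Several lists above 1.78% did not exceed the share among annotated models. These were protein kinases (3.47%), antioxidant and thiol proteins (3.45%), lipid and peroxisome proteins (3.03%), carbohydrate-active enzymes (2.82%) and chitin and glucan proteins (2.78%).

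**Figure D3:**
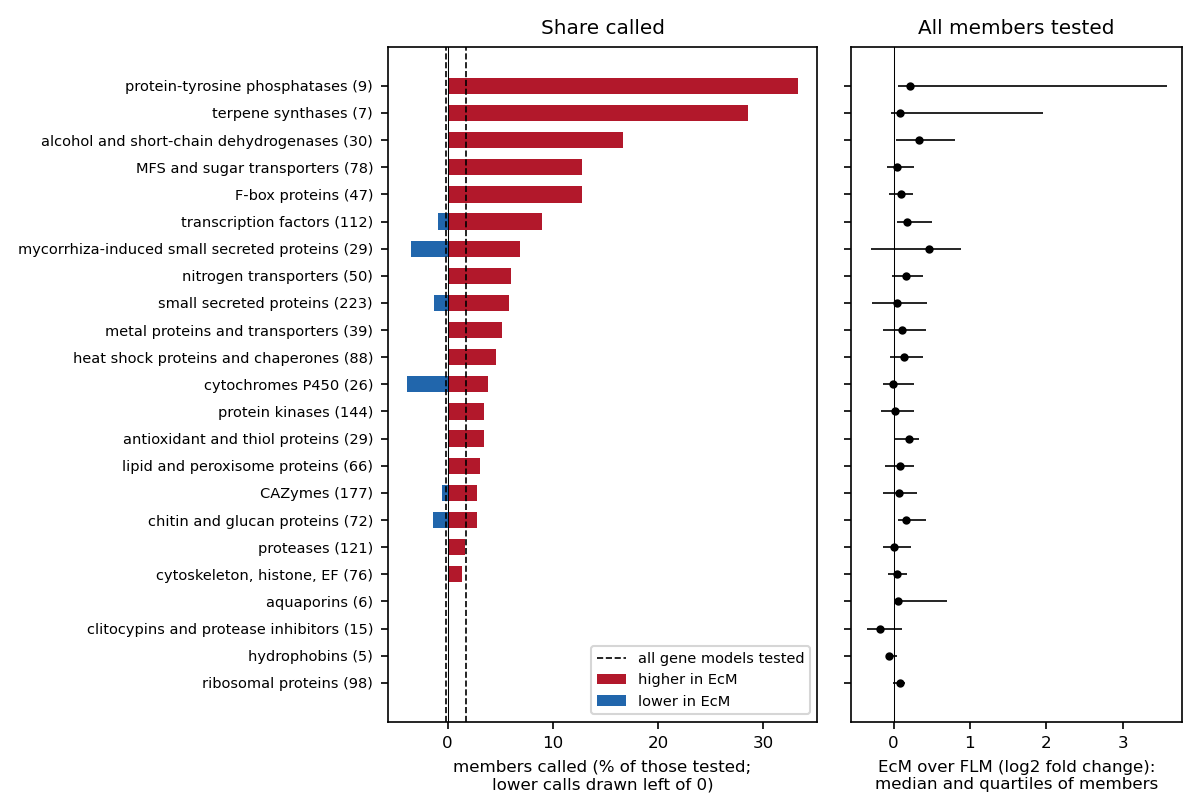
For each list of gene models, with the number tested in brackets, bars give the percentage of members called higher (red) or lower (blue, drawn left of 0) in EcM against FLM at 3 dpi, dashed lines give the same over all models tested (1.78% and 0.155%), and points with lines give the median and quartiles of the members' log2 fold changes. Protein-tyrosine phosphatases (3 of 9) and terpene synthases (2 of 7) have the highest shares called higher, while all the medians lie between -0.17 and 0.46.

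Small secreted proteins (SSPs) were split between a few strong rises and many members that were not called. Of 223 models tested, 13 were called higher (5.83%, against 1.78% of all models) and 3 lower (against 0.155%), with a median of 0.04. Of the 174 whose annotation came from sources not selected on these samples, 2 were higher (1.15%) and 3 lower. Model 704717, an SSP of unknown function, had 561, 704 and 269 CPM in the EcM libraries against 36.2, 28 and 22.1 CPM in the FLM libraries (log2 fold change 4.16 ± 0.59 SE, edgeR adjusted p = 2.25e-04), without overlap. The list also held the bZIP factor, the superoxide dismutase and the chitinase described above.

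Among the MiSSPs, 2 of 29 models were called higher (6.9%, against 1.78% of all models) and 1 lower, with a median of 0.46. MiSSP17 (332226) had 2.35, 2.13 and 1.54 CPM in the EcM libraries against 0.0559, 0.123 and 0.0998 CPM in the FLM libraries, or 140 counts in EcM and 7 in FLM, where no library had more than 3. The ratio of the scaled counts was 21.3 with a 95% exact interval of 10.1 to 54.1 for counting error, and the model passed the test with edgeR adjusted p = 3.00e-04 and in each leave-one-out fit. MISSP23.6 (328309) had 10.05, 10.2 and 4.27 CPM in the EcM libraries against 0.838, 2.01 and 1.6 CPM in the FLM libraries (log2 fold change 2.43 ± 0.45 SE, edgeR adjusted p = 0.00156), and the groups were apart.

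MISSP23.4 (293729) was called lower, with 8.98, 9.18 and 7.75 CPM in the EcM libraries against 32.1, 7.98 and 28.7 CPM in the FLM libraries (log2 fold change -1.40 ± 0.39 SE, edgeR adjusted p = 0.0342). FLM replicate 2 lay among the EcM values, so the groups overlapped. The call was lost without each library but FLM replicate 2, with adjusted p values up to 0.16.

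The label of ectomycorrhizal root tips was set beside 8 fungal models that the study names for ectomycorrhiza. At 3 dpi, 3 of them were called higher, namely MiSSP17, the Gti1/Pac2 protein and the chitinase, all at a few CPM or less. The study lists these 3 among models it selected on libraries of this series, so their calls are no independent check of the label. MiSSP7.6 (617208), not to be read as the MiSSP7 introduced above, for which no value is given here, was not called (log2 fold change 0.46 ± 0.96 SE, edgeR adjusted p = 0.853). It had 0.712, 0.543 and 0.684 CPM in the EcM libraries against 0.559, 0.247 and 0.599 CPM in the FLM libraries. MiSSP8 (388224), with 1.14, 0.995 and 0.513 CPM in the EcM libraries against 0.279, 0.905 and 0.599 CPM in the FLM libraries, was not called either (log2 fold change 0.56 ± 0.50 SE, edgeR adjusted p = 0.598), nor was MiSSP12 (312262), with 9.44, 8.18 and 4.44 CPM in the EcM libraries against 5.25, 1.81 and 4.66 CPM in the FLM libraries (log2 fold change 0.94 ± 0.37 SE, edgeR adjusted p = 0.146). In each of the 3 the EcM and FLM libraries overlapped. The study counted all material close to a root as EcM, and at 3 dpi it saw a starting mantle on very few short roots. It proposes that such sampling may have diluted MiSSP transcripts made at particular places, which was not tested here.

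Hydrophobin LbH12 (241509), a member of a family of surface-active wall proteins, had only 6 counts in EcM and 3 in FLM, so that no difference was detectable at this depth. None of 5 hydrophobins annotated by the study and none of 7 tested by RefSeq symbol was called by edgeR or DESeq2 or had an unadjusted p under 0.05. An aquaporin, a water channel (671860), had 45.7, 38.7 and 24.4 CPM in the EcM libraries against 21, 13.1 and 21.3 CPM in the FLM libraries. The EcM libraries were above the FLM libraries, and the adjusted p was 0.0274 with a log2 fold change of 0.98 ± 0.27 SE, just under the fold threshold. It was called without EcM replicate 3, at 1.17. None of 6 aquaporin models was called by edgeR or DESeq2, with 2 higher at an unadjusted p under 0.05, against 11.8% of all models.

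Poplar RNA was part of the EcM samples, and its reads have no gene models of their own in the tables. Of the 98 ribosomal protein models tested none was called by edgeR or DESeq2, and their median was 0.08. At an unadjusted p under 0.05, 4 were lower, against 7.56% of all models. Of 76 models of cytoskeleton, ubiquitin, histone and elongation factor proteins, conserved between plants and fungi, 1 was called higher (1.32%, against 1.78% of all models). It was 474480, annotated with histone acetyltransferase activity (log2 2.37). The summed level of these 76 models was 7265 to 7830 CPM in EcM and 6230 to 7415 CPM in FLM. The part of poplar reads in the results was not tested.

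Several of the strongest rises had no known function. Model 602767 had 54, 69.7 and 21.6 CPM in the EcM libraries against 0.95, 0.905 and 0.765 CPM in the FLM libraries (log2 fold change 5.81 ± 0.95 SE, edgeR adjusted p = 7.17e-04), model 705377 had 497, 636 and 216 CPM in the EcM libraries against 33.6, 21.8 and 23.1 CPM in the FLM libraries (log2 fold change 4.11 ± 0.70 SE, edgeR adjusted p = 0.00102), and model 687124 had 32, 49.6 and 24.9 CPM in the EcM libraries against 2.96, 1.64 and 1.96 CPM in the FLM libraries (log2 fold change 4.05 ± 0.57 SE, edgeR adjusted p = 2.22e-04). The groups were far apart in each. Model 602150 had 6.06, 13.2 and 3.76 CPM in the EcM libraries against 0.615, 0.37 and 0.333 CPM in the FLM libraries (log2 fold change 4.18 ± 0.71 SE, edgeR adjusted p = 9.18e-04). Model 297422 had no count in any FLM library and 55 counts in EcM, which is at least 19.6-fold higher against a floor of 3 counts over the FLM group (edgeR adjusted p = 0.00368). Of the 276 models called higher, 142 had any annotation text, as had 7 of the 24 called lower and 3951 of the 15533 tested.

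The other models with the smallest p had less spread between replicates than those with the largest fold changes. Model 291348, annotated with oxidoreductase activity and FAD and haem binding, had 123, 117 and 111 CPM in the EcM libraries against 24.5, 12.5 and 29.7 CPM in the FLM libraries (log2 fold change 2.39 ± 0.22 SE, edgeR adjusted p = 3.27e-07). Model 482602, without annotation, had 32.7, 28.6 and 25.6 CPM in the EcM libraries against 6.37, 7.73 and 7.55 CPM in the FLM libraries (log2 fold change 2.00 ± 0.24 SE, edgeR adjusted p = 1.48e-05), and model 701407, likewise unannotated, had 52, 44.2 and 37.4 CPM in the EcM libraries against 20.3, 17.6 and 20.9 CPM in the FLM libraries (log2 fold change 1.19 ± 0.14 SE, edgeR adjusted p = 1.01e-05). All EcM values were above all FLM values in the 3 models, and each was called in every leave-one-out fit.

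Falls were few and small. Model 330799 had 5.27, 3.93 and 4.27 CPM in the EcM libraries against 14.1, 37.6 and 8.35 CPM in the FLM libraries (log2 fold change -2.15 ± 0.53 SE, edgeR adjusted p = 0.0149). FLM replicate 2 was the highest library, and without it the adjusted p was 0.121 (without EcM replicate 1 0.051, without EcM replicate 2 0.0887). Model 695194, a secreted ribonuclease-like protein, had 3.6, 2.49 and 3.25 CPM in the EcM libraries against 8.83, 15.5 and 6.49 CPM in the FLM libraries (log2 fold change -1.71 ± 0.27 SE, edgeR adjusted p = 3.00e-04), and it was called in each leave-one-out fit, as was 701296, with 9.8, 7.51 and 9.29 CPM in the EcM libraries against 21.2, 26.4 and 16.4 CPM in the FLM libraries (log2 fold change -1.26 ± 0.20 SE, edgeR adjusted p = 3.61e-04). The carbohydrate esterase 307596, of family CE4 to which chitin deacetylases belong, had 1.42, 1.13 and 1.14 CPM in the EcM libraries against 3.47, 6.17 and 2.66 CPM in the FLM libraries (log2 fold change -1.71 ± 0.47 SE, edgeR adjusted p = 0.0291), and kept its call only without FLM replicate 3, with adjusted p values up to 0.13 otherwise.

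Models 399471 (log2 -1.66 with edgeR adjusted p = 0.0133) and 469925 (log2 -1.61 with edgeR adjusted p = 0.00565) had no annotation. The first lost its call without EcM replicate 2 (adjusted p = 0.0887) or FLM replicate 2 (0.119) and the second without EcM replicate 2 (0.0528). The SSP 697953 had 35, 33.7 and 36.5 CPM in the EcM libraries against 83.3, 83.9 and 64.5 CPM in the FLM libraries (log2 fold change -1.14 ± 0.33 SE, edgeR adjusted p = 0.0412) and lost its call without any of the 6 libraries, with adjusted p values up to 0.144. Phenylalanine ammonia-lyase (184628), which removes ammonia from phenylalanine to give cinnamate and was named after its values were seen, had 31.1, 31.4 and 25.5 CPM in the EcM libraries against 68.4, 58.1 and 65.2 CPM in the FLM libraries (log2 fold change -1.12 ± 0.18 SE, edgeR adjusted p = 5.36e-04). It was evenly lower in the 3 EcM libraries and called in each leave-one-out fit.

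The mycelium farther from the roots allowed the root-associated response to be set against that of the rest of the same cultures. Only 6 of the 15533 models (0.0386%) were called in EcM against ExM at 3 dpi, all higher in EcM, and 467 had an unadjusted p under 0.05. ExM against FLM had 236 calls (1.52%), 203 higher and 33 lower. Both comparisons share libraries with that of EcM against FLM, so their values are given side by side.

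In several of the strong EcM over FLM rises the ExM values overlapped those of EcM. The bZIP factor 395214 had 363, 453 and 155 CPM in EcM, 169, 421 and 260.4 CPM in ExM and 4.19, 6.33 and 1.8 CPM in FLM. The Zn2Cys6 protein 292029 had 775, 1139.5 and 305 CPM in EcM, 191, 1021 and 707 CPM in ExM and 23.6, 18.4 and 19.2 CPM in FLM, and the terpene synthase 394925 had 122, 257 and 54.5 CPM in EcM, 24.9, 225 and 227 CPM in ExM and 2.46, 2.84 and 1.83 CPM in FLM. In all 3, ExM replicate 1 was the lowest ExM library, and no ExM value reached down to FLM. The log2 differences of EcM from ExM were 0.19 ± 0.86 SE, edgeR adjusted p = 1.00 for the bZIP factor and -0.14 ± 0.92 SE, edgeR adjusted p = 1.00 for the terpene synthase; errors of this size do not show that the zones were alike. HSP20 384818 had 60.2, 348 and 233 CPM in ExM and the phosphatase 673052 had 54.7, 268 and 158 CPM. Over the 276 models, the median log2 fold change was 1.74 in EcM against FLM and 1.56 in ExM against FLM. Of the 276, 274 had an ExM over FLM value above 0, where the median over all models tested was 0.01. In ExM against FLM 177 of them were also called higher, beside 1.31% of all models. In EcM against ExM 5 of them were called higher, beside 0.0386% of all models. The 276 were chosen on EcM and FLM libraries that these comparisons share, so the counts are a description.

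MiSSP17 (332226) was apart from ExM but not called against it, with 2.35, 2.13 and 1.54 CPM in EcM, 0.214, 0.316 and 0.445 CPM in ExM and 0.0559, 0.123 and 0.0998 CPM in FLM (EcM over ExM log2 2.59 ± 0.54 SE, edgeR adjusted p = 0.0767). The 6 models called higher in EcM than in ExM had ExM values below those of EcM. The Gti1/Pac2 protein 603166 had 2.07, 1.76 and 0.741 CPM in EcM, 0, 0.119 and 0.162 CPM in ExM and 0, 0.0822 and 0.0333 CPM in FLM (EcM over ExM log2 3.88 ± 0.51 SE, edgeR adjusted p = 1.14e-04). The chitinase 674406 had 5.52, 4.66 and 1.48 CPM in EcM, 0, 0.356 and 0.324 CPM in ExM and 0.112, 0.288 and 0.266 CPM in FLM (EcM over ExM log2 3.99 ± 0.67 SE, edgeR adjusted p = 0.00862). ExM lay with FLM in both.

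The glycosyltransferase 647187, annotated as an N-acetylglucosaminyltransferase, had 45.7, 33.9 and 17.3 CPM in EcM, 7.87, 7.16 and 8.78 CPM in ExM and 13.7, 9.54 and 13.2 CPM in FLM (EcM over ExM log2 2.03 ± 0.24 SE, edgeR adjusted p = 8.20e-05). ExM was below FLM there. Model 617261, of unknown function, had 41.1, 33.7 and 25.3 CPM in EcM, 16.5, 14.6 and 13.4 CPM in ExM and 11.6, 9.95 and 11.4 CPM in FLM (EcM over ExM log2 1.18 ± 0.20 SE, edgeR adjusted p = 0.00862). The remaining models, 486416 (log2 1.11 ± 0.19 SE, edgeR adjusted p = 0.00862) and 298392 (log2 1.08 ± 0.21 SE, edgeR adjusted p = 0.0277), also lacked a known function, and 298392 was not called against FLM (log2 fold change 0.87 ± 0.21 SE, edgeR adjusted p = 0.0116). The count of 6 was 21 without EcM replicate 3, 4 without EcM replicate 2, 3 without ExM replicate 1 or 2, 2 without ExM replicate 3 or EcM replicate 1, and 15 in DESeq2.

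**Figure D4:**
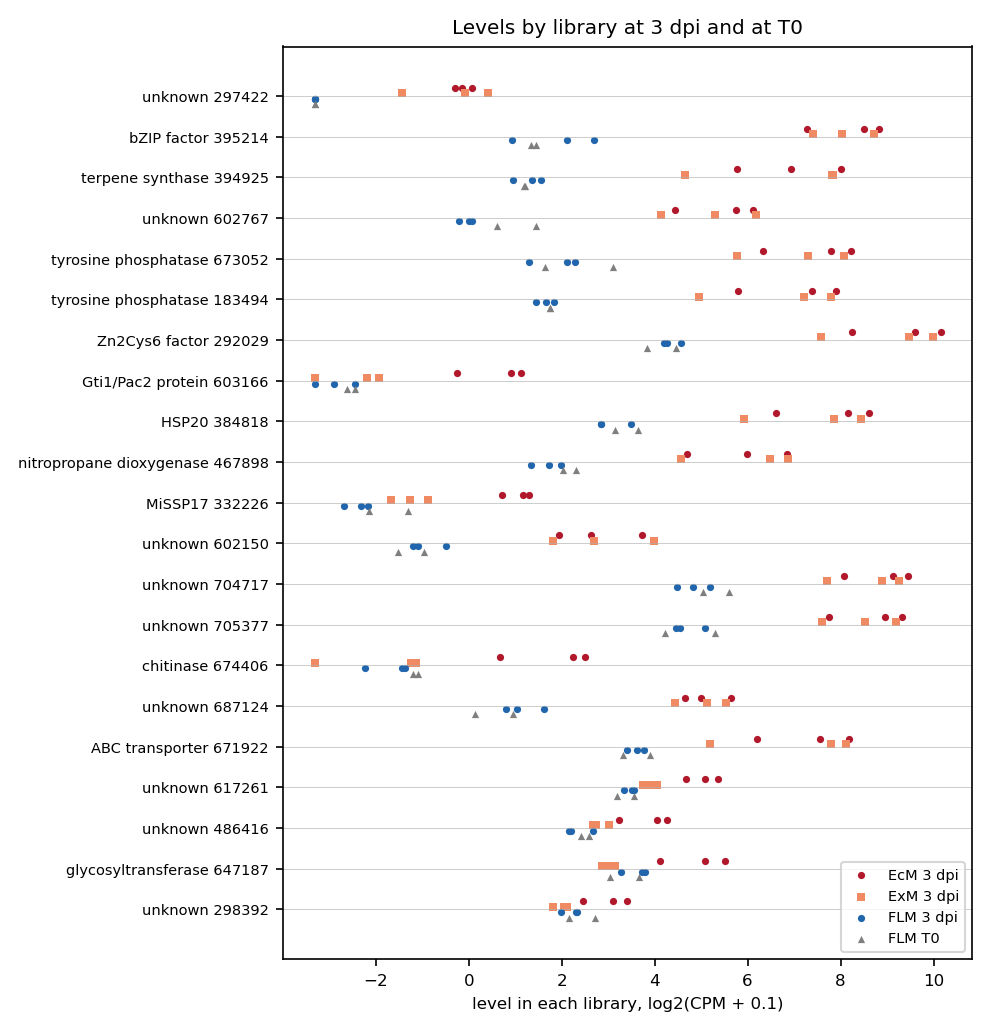
Points give the level of each library, log2(CPM + 0.1), of 21 gene models in EcM, ExM and FLM at 3 dpi (3 libraries each) and FLM at T0 (2 libraries). For most strong rises the EcM and ExM points overlap far above FLM, whereas the 6 models called higher in EcM than in ExM (603166, 674406, 617261, 486416, 647187 and 298392) have ExM points near those of FLM.

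Later days of the same time course show how the 3 dpi values relate to the formed organ. EcM against FLM had 609 calls at 7 dpi (3.92%), 1057 at 14 dpi (6.8%, of which the lower ones 2.77%) and 875 at 21 dpi (5.63%), each from libraries of its own day. Of the 276 models higher at 3 dpi, 234 were also called higher at 7 dpi, which is 84.8% of the 276 and 41% of the 571 models higher at 7 dpi (3.68% of all tested). At 14 dpi, 62 were called higher, 22.5% of the 276 and 9.9% of the 626 higher that day (4.03% of all tested), and at 21 dpi 37, 13.4% of the 276 and 11.2% of 329 (2.12% of all tested). The median log2 fold change of the 276 was 1.88 at 7 dpi, 0.57 at 14 dpi and 0.27 at 21 dpi. A test of the difference between the days called 53 models between 7 and 3 dpi (0.341%), 48 with a higher value at 7 dpi (0.309%) and 5 with a lower one (0.0322%). Between 14 and 3 dpi it called 922 (5.94%), 487 higher at 14 dpi (3.14%) and 435 lower (2.8%). Of the 24 models lower at 3 dpi, 3 were called lower and 0 higher at 7 dpi, 4 lower and 4 higher at 14 dpi, and 3 lower and 4 higher at 21 dpi.

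The bZIP factor averaged 324 ± 153 CPM in EcM against 4.11 ± 2.27 CPM in FLM at 3 dpi, 388 ± 273 in EcM beside 2.39 ± 0.0402 in FLM at 7 dpi, 64.1 ± 69.9 in EcM beside 9.51 ± 6.95 in FLM at 14 dpi and 52.3 ± 39.6 in EcM beside 3.14 ± 0.715 in FLM at 21 dpi (SD, n = 3). HSP20 averaged 257 ± 148 CPM in EcM against 8.45 ± 2.37 CPM in FLM at 3 dpi, 345 ± 421 in EcM beside 13.1 ± 0.769 in FLM at 7 dpi, 31.6 ± 25 in EcM beside 23.3 ± 1.36 in FLM at 14 dpi and 28.7 ± 5.01 in EcM beside 16.8 ± 7.21 in FLM at 21 dpi. The EcM means of both were highest at 7 dpi, where the SD of HSP20 exceeded its mean, and lower at 14 and 21 dpi. In ExM the bZIP factor averaged 181 CPM at 14 dpi (2 libraries) and 115 ± 92.6 CPM at 21 dpi, above its EcM means of those days. HSP20 averaged 34.2 and 35.7 CPM in ExM on those days. The EcM over FLM log2 value of HSP20 differed between 14 and 3 dpi by -4.50 ± 1.24 SE, edgeR adjusted p = 0.0138, whereas that of the bZIP factor differed by -3.56 ± 1.36 SE, edgeR adjusted p = 0.0744, which did not pass.

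The Gti1/Pac2 protein, the chitinase and MiSSP17 were highest in EcM later. The chitinase averaged 3.89 ± 2.13 CPM in EcM against 0.222 ± 0.096 CPM in FLM at 3 dpi, 5.94 ± 2.22 in EcM beside 0.225 ± 0.173 in FLM at 7 dpi, 40.4 ± 16.6 in EcM beside 0.246 ± 0.129 in FLM at 14 dpi and 11.3 ± 3.35 in EcM beside 0.0741 ± 0.081 in FLM at 21 dpi. MiSSP17 averaged 2.0 ± 0.42 CPM in EcM against 0.093 ± 0.0342 CPM in FLM at 3 dpi, 3.63 ± 1.26 in EcM beside 0.168 ± 0.13 in FLM at 7 dpi, 12.2 ± 2.46 in EcM beside 0.0721 ± 0.125 in FLM at 14 dpi and 5.95 ± 3.69 in EcM beside 0.0347 ± 0.0301 in FLM at 21 dpi. The Gti1/Pac2 protein averaged 1.52 ± 0.695 CPM in EcM at 3 dpi and 10.6 ± 2.21 CPM in EcM at 14 dpi. The differences of the log2 fold changes between 14 and 3 dpi did not pass (chitinase 3.28 ± 1.18 SE, edgeR adjusted p = 0.057, MiSSP17 3.12 ± 1.35 SE, edgeR adjusted p = 0.113).

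The 5 markers not called at 3 dpi were all called higher in EcM at 14 dpi. Hydrophobin LbH12 averaged 0.0958 ± 0.0663 CPM in EcM against 0.0385 ± 0.0414 CPM in FLM at 3 dpi, 1.88 ± 0.297 in EcM beside 0.0821 ± 0.0102 in FLM at 7 dpi, 19.7 ± 7.22 in EcM beside 0.0905 ± 0.0926 in FLM at 14 dpi and 12.8 ± 6.81 in EcM beside 0.0178 ± 0.0309 in FLM at 21 dpi. The difference between 14 and 3 dpi was 6.87 ± 2.31 SE, edgeR adjusted p = 0.0396. For MiSSP8 it was 3.02 ± 0.66 SE, edgeR adjusted p = 0.00171, for LbAMT2.3c 3.14 ± 0.35 SE, edgeR adjusted p = 2.44e-07 and for the oligopeptide symporter 668820 3.65 ± 0.28 SE, edgeR adjusted p = 2.64e-10. The CE4 esterase 307596, lower in EcM at 3 dpi, averaged 53.1 ± 12.7 CPM in EcM against 3.15 ± 0.483 CPM in FLM at 14 dpi, a difference of 5.77 ± 0.61 SE, edgeR adjusted p = 2.27e-07 from its value at 3 dpi.

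**Figure D5:**
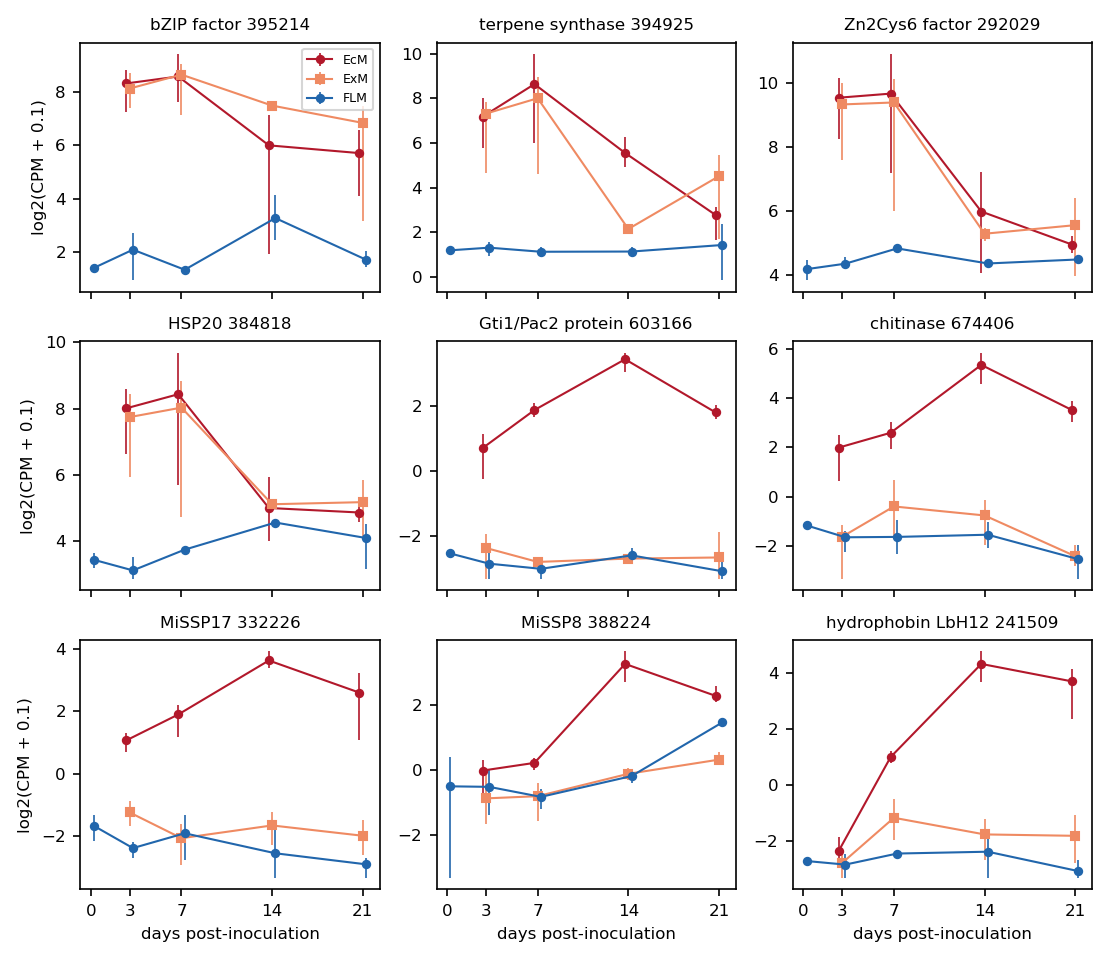
Each panel follows 1 gene model over the days post-inoculation, on the scale log2(CPM + 0.1). Points are at the mean CPM over the libraries of EcM, ExM and FLM, taken before the log, and bars reach to the lowest and highest library (day 0 has FLM only). The bZIP factor, terpene synthase, Zn2Cys6 factor and HSP20 stand high in EcM and ExM at 3 and 7 dpi. In ExM the bZIP factor still averages 181 CPM at 14 dpi and 115 CPM at 21 dpi. The Gti1/Pac2 protein, chitinase, MiSSP17, MiSSP8 and LbH12 are highest in EcM at 14 dpi.

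The mycelium at T0 gives a second reference, although with 2 libraries that differ from each other (summed ribosomal level 14918 and 26926 CPM). EcM at 3 dpi against T0 had 236 calls (1.52%), 176 higher and 60 lower. FLM at 3 dpi against T0 had 7 calls (0.0451%), all lower, and 1522 models had an unadjusted p under 0.05. These comparisons share the EcM or FLM libraries with the one above. The bZIP factor had 363, 453 and 155 CPM in EcM at 3 dpi and 2.63 and 2.41 CPM at T0 (log2 7.01 ± 1.43 SE, edgeR adjusted p = 0.00576). Over the 276 models, the median log2 value was 1.62 for EcM at 3 dpi against T0 and -0.17 for FLM at 3 dpi against T0, so their FLM levels at 3 dpi lay near those of T0. The count of 236 was 366 without T0 replicate 1, 91 without EcM replicate 2 and 134 without EcM replicate 1, and that of 7 was 128 without T0 replicate 1, 177 without T0 replicate 2, 102 without FLM replicate 2, 2 without FLM replicate 1 and 3 without FLM replicate 3.

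Lists that the study had drawn from other libraries, those of mycelium grown with altered nutrients, were set against the 3 dpi contrast. Of 71 models of nodes specific to a surplus of ammonium, 9 were called higher (12.7%, against 1.78% of all models) and 1 lower (against 0.155%), with a median of 0.05. Of 74 models of nodes specific to a shortage of ammonium or glucose, 3 were higher (4.05%) and 2 lower, with a median of 0.08. That list mixes directions. The study reports a node raised by low ammonium, and others lowered by low glucose or by low glucose and low ammonium alike. Its counts therefore do not show whether the 3 dpi changes went the way of a shortage. The 9 included LbAMT2.3c, the Gti1/Pac2 protein, the glycosyltransferase 647187 and model 486416 described above, along with models 592211 (log2 2.23 with edgeR adjusted p = 0.00326) and 697183 (log2 1.95 with edgeR adjusted p = 0.00101), both of unknown function. The 3 were the phosphatase 673052, the TEA domain protein 298274 and model 394934 (log2 1.10). Lists drawn by the study on these same samples give no independent evidence: 24 of 25 models of its early plant response nodes, 6 of 7 of its 7 dpi node and 15 of 106 of its late EcM nodes were called higher, the last with 2 lower and a median of 0.33.

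Groups of other functions identified by RefSeq symbol were small, so that a share of 1.78% called higher, as over all models, would give less than 1 call in each. Of 9 laccases, 19 histones, 16 protein glycosylation enzymes and 5 pheromones and receptors none was called by edgeR or DESeq2. At an unadjusted p under 0.05, 1 laccase was higher and 3 were lower, 1 glycosylation enzyme was higher, and no histone, pheromone or receptor passed. Of 19 secreted proteases identified by symbol none was called by edgeR and 1 by DESeq2, with 5 higher and 2 lower at an unadjusted p under 0.05. Over all models tested, 11.8% were higher and 7.56% lower at that p, the reference for each of these groups.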

How the data were processed

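RNA of Laccaria bicolor was sequenced as strand-specific mRNA libraries, and per the study's methods the authors aligned the reads to the fungal reference transcripts with CLC Genomics Workbench and allowed reads with several matches. The deposited tables give, per gene model and library, the raw read count and an RPKM value, the count per kilobase and megacount. The authors' count of reads was used for every test, and the deposited RPKM values were not used. Reads were counted for 23130 models, and models of near-identical sequence may share reads.

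Counts of all 37 libraries were scaled by TMM and fitted with edgeR 4.0.16 (R 4.3.3) in 1 quasi-likelihood model with 1 coefficient per group, after the filterByExpr filter (minimum count 10, minimum total 15), which left 15533 models. The call rule asked for a Benjamini-Hochberg value under 0.05 over all models tested and for a change of 1 log2 unit or more in either direction. The common biological coefficient of variation was 0.142. Intervals cover counting error only (95%, exact), and the floor for a group at 0 was 3 counts. Fold changes of models with few counts depend on the prior count.

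The models named are those called whose mean log2 CPM reached 1 and whose EcM and FLM libraries did not overlap (the 12 largest rises, 8 largest falls and 4 smallest p), all models called in EcM against ExM, up to 3 called members per list, the models the study names and its 15 top models of 3 dpi, 83 in all with 8 chosen after their values were seen. Members and lists were chosen with earlier results of these data known. Functions came from the study's supplementary annotation, and symbols from RefSeq. Other settings were DESeq2 1.42.0, size factors, no filter, fewer libraries, a replicate block, glmTreat and leaving out each library. The fit was tested on simulated data for EcM against FLM at 3 dpi, with 15359 models tested, of which 200 were changed. Of these, 98 of 100 changed by 1.5 log2 units and 97 of 100 changed by 2 were recovered, with 3 false calls. The rates describe the simulated counts only. Whether they hold for the real libraries, where leaving out 1 library gave 112 to 370 calls, was not tested. Sequences of gene models and promoter motifs were not analysed here.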

Additional observations from a re-analysis of the deposited data

Results flagged for a closer look

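The EcM over FLM difference was tested against that of later days in the same fit, and results are listed here because the difference between the days passed the test (edgeR, adjusted p under 0.05 and a log2 difference of at least 1 in size). Between 7 and 3 dpi 53 gene models differed (0.341%), 48 with a higher and 5 with a lower value at 7 dpi, and between 14 and 3 dpi 922 differed (5.94%), 487 higher and 435 lower at 14 dpi. The count of 53 was 85 without FLM replicate 2 of 3 dpi, 17 without EcM replicate 3 of 3 dpi, 25 without EcM replicate 2 or FLM replicate 1 of 3 dpi, 26 without EcM replicate 1 of 7 dpi and 29 to 33 without an FLM replicate of 7 dpi. All values below are differences of log2 fold changes, later day minus 3 dpi, and the 3 dpi libraries are shared by both.

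At 7 dpi the value was larger than at 3 dpi by 1.48 for the ribonuclease-like 695194, by 1.44 for 701296 and by 1.28 for 617261.

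At 14 dpi the early rises were smaller: HSP20 384818 differed by -4.50, the phosphatase 463346 by -3.82, the unannotated 687124 by -3.68, the serine protease 655343 by -3.56, the 2-nitropropane dioxygenase 467898 by -3.55 and the secreted protein 704717 by -3.10. The same direction was found for 705377 (-2.68), the spartin-like 324765 (-2.56), the dehydrogenase 693238 (-2.52), the cyclin-like 658958 (-2.42), the F-box protein 704262 (-2.37), 482602 (-1.84), the TEA domain protein 656449 (-1.82), MISSP23.6 328309 (-1.82) and the transporter 250962 (-1.60).

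Models with a higher value at 14 than at 3 dpi were hydrophobin LbH12 241509 (6.87), the CE4 esterase 307596 (5.77), the oligopeptide symporter 668820 (3.65), MiSSP12 312262 (3.46), LbAMT2.3c 313221 (3.14), clitocypin 293826 (3.07), MiSSP8 388224 (3.02), 330799 (2.64), LbAMT2.2 331747 (2.55), the glycosyltransferase 647187 (2.54), 486416 (2.50), 695194 (2.49), MISSP23.4 293729 (1.90), 399471 (1.77), the aquaporin 671860 (1.71), 617261 (1.54), 298392 (1.53) and phenylalanine ammonia-lyase 184628 (1.29).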

How the results depend on the processing

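Rises dominated the calls of EcM against FLM at 3 dpi in each of the fits run. Against 300 calls, edgeR with median-of-ratios size factors gave 293, no low-count filter 272, DESeq2 351, the 6 compared libraries alone 149, the 9 libraries of 3 dpi 169 and glmTreat against a log2 fold change of 1 gave 16, all higher. Leaving out 1 library gave 112 to 370 calls. DESeq2 also called 270 of the 276 higher and 24 of the 24 lower models. For EcM against ExM (6 calls) the compared libraries alone gave 0 and DESeq2 15, with 2 to 21 on leaving out 1 library. For the difference between 7 and 3 dpi (53) DESeq2 gave 80, with 17 to 85 on leaving out 1 library, and for that between 14 and 3 dpi (922) the range was 741 to 1115. For EcM against T0 (236) the compared libraries alone gave 0, with 91 to 366 on leaving out 1 library, and for FLM against T0 (7) they gave 0 and DESeq2 19, with a range of 2 to 177. The lists held 105 different called models, 56 with the compared libraries alone, 60 when only annotation not selected on these samples was used, and 56 to 118 on leaving out 1 library. Of the models named, 74 were called, 48 with the compared libraries alone and 50 to 71 on leaving out 1 library. LbAMT2.2 (331747) changed sign: its log2 fold change of 0.15 was -0.12 without EcM replicate 1 and -0.04 without FLM replicate 1, and 0.42 without FLM replicate 3. The cause of these changes was not tested.

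Replicate numbers are shared between the groups, but deviations of same-numbered EcM and FLM libraries from their group means correlated at only 0.002, 0.002 and 0.03 over genes. For same-numbered EcM and ExM libraries the values were -0.054, 0.28 and -0.057, while EcM replicate 3 and ExM replicate 1 reached 0.283. A pairing by number was not seen in either case, so the libraries were not taken as paired. With a replicate block, EcM against FLM had 185 calls (177 higher, 8 lower), EcM against ExM 4, the difference between 7 and 3 dpi 35, EcM against T0 53 and FLM against T0 1, and the lists held 70 called models. Models with under 3 counts in every library of a group were at the limit of this depth.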
